A study of Mus musculus with 82 samples.

Results

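Broad H3K4me3 promoters without H3K27me3 were the H3K4me3 peaks of mouse hematopoietic stem cells (HSCs) that were assigned to a transcription start site (TSS), were at least 4000 bp long and shared no base pair with an H3K27me3 peak. The rule selected on peak length and on the absence of an H3K27me3 peak, in peak lists that cover young and old HSCs, and it chose 19 peaks of the 14684 TSS-proximal H3K4me3 peaks, out of 33199 H3K4me3 peaks in all. The 19 peaks carried 21 genes, because a peak can be assigned to more than 1 gene, as that of Ncln and S1pr4 was. All 19 have the origin code YOHSC in the peak list, which also holds peaks coded YHSC and OHSC, so that peak ends and lengths are not those of young HSCs alone, while the H3K4me3 signals below are from young libraries. Of the remaining TSS-proximal peaks, 4 were as broad but overlapped H3K27me3, 10419 were narrower without H3K27me3 and 4242 were narrower with it.

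The study profiled HSCs, the cells at the root of the blood system, from C57BL/6J male mice that were young (3 to 4 months) or old (24 to 26 months). HSCs were sorted from bone marrow as LSK CD34- Flk2- CD150+ cells, and RNA was sequenced from 4 young libraries, each made from pooled mice, and from 8 old libraries, each made from an individual mouse. ATAC-seq, which measures how open chromatin is, was analysed in 4 young and 4 old libraries, and ChIP-seq of H3K27ac in 2 young and 2 old libraries, while H3K4me3 and H3K27me3 were read here in 2 young libraries each. RNA of common myeloid progenitors (CMP), granulocyte-macrophage progenitors (GMP) and megakaryocyte-erythrocyte progenitors (MEP) of young mice, by the sample titles, came from 2 wild-type libraries per cell type. In the knockdown groups, old HSCs carried a control shRNA (shControl) or one of 2 lentiviral shRNAs, Btaf1 shRNA1 and Btaf1 shRNA2, against a short variant of Btaf1, a regulator of the TATA-binding protein. These cells were sequenced after 3.5 days in culture, or after transplantation into irradiated young female recipients and sorting of donor cells as LSK CD48- CD150+ CD45.2+, with 2 libraries per construct in each setting. The knockdown thus has no young arm, and cultured cells are no longer freshly isolated HSCs.

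H3K4me3 is a methyl mark that sits on the nucleosomes around active start sites, and most active genes carry a short stretch of it. Unusually long stretches are known from many tissues at genes tied to the identity and regulation of the cell type. H3K27me3 is set by the Polycomb machinery at silent or poised genes, and promoters with both marks are called bivalent. H3K27ac marks active promoters and enhancers, and H3K36me3 is laid down behind elongating RNA polymerase in gene bodies.

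Sequences just upstream of start sites are shown for 6 genes, since their base composition separates Clec2d, the longest of the peaks, from the genes whose RNA or accessibility carried the results below. Each is the 250 bases before the RefSeq start site, 5′ to 3′ on the strand of the gene, from RefSeq on GRCm38.p6 (mm10), and the capitals mark CG dinucleotides, the sites at which mammalian DNA can be methylated. The Clec2d sequence is from the plus strand at chr6:129180365-129180614, Pim1 from the plus strand at chr17:29490535-29490784, Mycn from the minus strand at chr12:12941837-12942086, Cdk6 from the plus strand at chr5:3343643-3343892, Alcam from the minus strand at chr16:52453082-52453331 and Ubb from the plus strand at chr11:62550921-62551170. No annotated exon of any gene overlapped these 6 stretches.
Clec2d: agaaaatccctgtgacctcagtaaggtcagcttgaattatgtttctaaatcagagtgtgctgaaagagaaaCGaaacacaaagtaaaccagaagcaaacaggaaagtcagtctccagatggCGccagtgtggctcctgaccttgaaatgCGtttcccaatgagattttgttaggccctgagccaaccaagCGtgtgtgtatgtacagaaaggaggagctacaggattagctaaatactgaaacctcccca
Pim1: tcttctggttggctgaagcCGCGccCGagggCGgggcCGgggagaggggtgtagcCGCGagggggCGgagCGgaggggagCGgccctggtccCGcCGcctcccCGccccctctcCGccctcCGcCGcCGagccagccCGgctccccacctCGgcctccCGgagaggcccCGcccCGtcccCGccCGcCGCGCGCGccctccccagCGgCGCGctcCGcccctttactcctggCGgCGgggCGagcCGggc
Mycn: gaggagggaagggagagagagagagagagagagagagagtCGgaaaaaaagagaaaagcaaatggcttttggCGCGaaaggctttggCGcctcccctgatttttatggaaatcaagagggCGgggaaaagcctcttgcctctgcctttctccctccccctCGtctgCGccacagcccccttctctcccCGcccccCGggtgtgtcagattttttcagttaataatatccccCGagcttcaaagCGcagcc
Cdk6: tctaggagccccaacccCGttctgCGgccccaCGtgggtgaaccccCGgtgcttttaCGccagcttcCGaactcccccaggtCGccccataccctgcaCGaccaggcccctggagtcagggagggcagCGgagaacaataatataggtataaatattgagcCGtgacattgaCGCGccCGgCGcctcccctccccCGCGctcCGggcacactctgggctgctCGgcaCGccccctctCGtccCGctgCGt
Alcam: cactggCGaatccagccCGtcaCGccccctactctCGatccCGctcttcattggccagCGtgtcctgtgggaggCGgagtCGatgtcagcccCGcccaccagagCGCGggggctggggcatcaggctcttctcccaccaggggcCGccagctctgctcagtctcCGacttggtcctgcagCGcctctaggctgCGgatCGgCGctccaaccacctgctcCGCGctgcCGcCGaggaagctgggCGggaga
Ubb: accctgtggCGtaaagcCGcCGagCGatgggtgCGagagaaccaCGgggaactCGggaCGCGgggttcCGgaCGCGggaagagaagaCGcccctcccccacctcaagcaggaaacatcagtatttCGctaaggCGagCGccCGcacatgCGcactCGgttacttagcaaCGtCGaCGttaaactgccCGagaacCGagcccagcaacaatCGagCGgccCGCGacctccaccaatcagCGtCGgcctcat
Clec2d held 4 CG dinucleotides in these 250 bases, Mycn 11, Cdk6 and Alcam 22 each, Ubb 30 and Pim1 36.

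Over the 16 of the 21 genes with a RefSeq promoter entry, the window from 250 bases before to 50 bases after the start site held a median of 24 CG dinucleotides (range 1 to 42) at a GC content of 62.3%. All 32817 promoters of the table held a median of 7 at 52.7% GC, while the narrow promoters without H3K27me3 held 20 at 60.7%, so the broad promoters lay close to other active promoters. Myc, Car2 and Nfe2 had no entry. S1pr4 held 1 CG dinucleotide and Clec2d 5, the lowest values of the set, and the start sites of both lay outside their own H3K4me3 peak. The Bcl11a entry lay 2639 bp from the start site that the peak table used, outside the peak.

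Over the whole length of the peaks, the Clec2d peak was poor in CG dinucleotides, with 25 in 4723 bp, or 0.529 per 100 bases, at 41.1% GC. The other 14 peaks with an entry held between 149 at Ubb and 309 at Zmiz1, and the median of the 15 was 188, or 4.59 per 100 bases. Narrow peaks without H3K27me3 held a median of 5.03 per 100 bases. By their median, the broad peaks were thus not denser in CG dinucleotides than the narrow ones.

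Short motifs were searched on both strands of the 300-base windows of the 16 genes. The GC box GGGCGG was in 9 of 16 windows (56.2%), beside 35.6% of all promoters and 62.3% of the narrow promoters without H3K27me3. CCAAT was in 6 of 16 (37.5%), beside 37.4% of all promoters and 37.9% of the narrow ones. TATAAA was in the windows of Cdk6 and Arid5b (12.5%), beside 13.6% of all promoters and 6.88% of the narrow ones. The ETS core CCGGAAG was in the Smarca2 window alone (6.25%), beside 8.86% of all promoters and 18.7% of the narrow ones, and the E-box CAGCTG in the Cpt1a window alone (6.25%), beside 16.3% and 14.7%. The CRE motif TGACGTCA, the RUNX core TGTGGT and the GATA motif AGATAA were in 0 of 16, beside 1.79%, 16.8% and 11.2% of all promoters and 3.14%, 12.8% and 6.36% of the narrow ones. None of these motifs contains another, and a match is a match of letters only.

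The peaks spanned 4012 to 4723 bp, and the H3K4me3 values that follow, given as mean signal per 10 M (mega) reads, are a description, since the same peaks and libraries chose the members. The longest was that of Clec2d, a C-type lectin bound by receptors of natural killer cells, at 4723 bp (chr6:129180639-129185361). It was followed by Bcl11a, a zinc-finger repressor of fetal globin, at 4402 bp (chr11:24075836-24080237) and by Nfe2, a factor of megakaryocyte and erythroid genes, at 4335 bp (chr15:103251533-103255867). Next came Mycn, a MYC-family factor, at 4312 bp (chr12:12937571-12941882), Patz1, a zinc-finger factor, at 4290 bp (chr11:3288830-3293119), and Ppp1r9b, the phosphatase scaffold spinophilin, at 4226 bp (chr11:94990036-94994261). Car2, a carbonic anhydrase abundant in erythroid cells, had 4189 bp (chr3:14886073-14890261) and Myc, a factor of growth and proliferation, 4182 bp (chr15:61984113-61988294). The 8 longest peaks thus included Bcl11a, Nfe2, Mycn and Myc, all 4 of the members on the list of hematopoietic transcription factors used below.

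**Figure D1:**
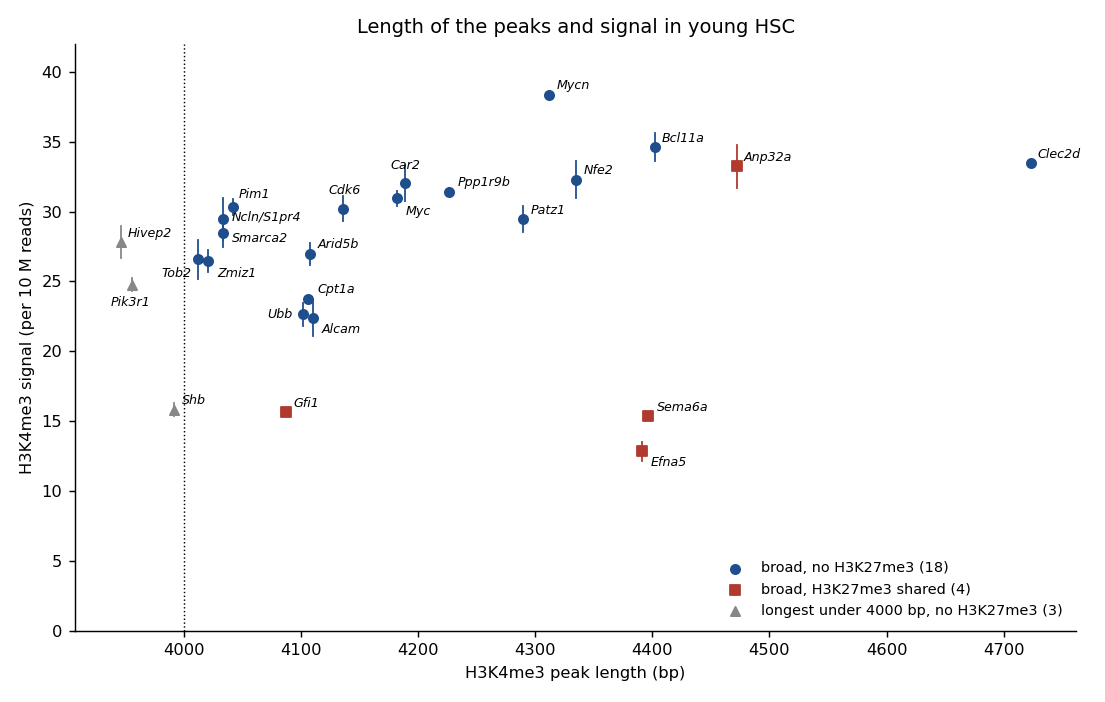
H3K4me3 peak length in bp (x axis) against mean H3K4me3 signal per 10 M reads (y axis) in 2 young HSC libraries, with bars joining the libraries. Circles are 18 of the 19 broad peaks without H3K27me3, squares the 4 broad peaks that share sequence with H3K27me3 and triangles the 3 longest peaks under the dotted 4000 bp line. Mycn has the highest signal at 38.4 and Alcam the lowest of the circles at 22.4, while Efna5, Sema6a and Gfi1 lie below them all.

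The length limit cut through a continuous range. The 3 shortest members were Tob2 (4012 bp), Zmiz1 (4021 bp) and Smarca2 (4033 bp, the length of the Ncln/S1pr4 peak as well), and the 3 longest peaks under the limit were Shb (3992 bp), Pik3r1 (3956 bp) and Hivep2 (3946 bp). Tob2, Zmiz1 and Smarca2 had mean signals of 26.6, 26.5 and 28.5 per 10 M reads, and Shb, Pik3r1 and Hivep2 had 15.8, 24.8 and 27.8. At the limit on H3K27me3, Smarca2 lay 283 bp and Alcam 669 bp from the nearest H3K27me3 peak, and every other member lay at least 4118 bp away, the distance of Mycn. On the far side, Anp32a shared 305 bp (6.82%) of its 4472 bp with H3K27me3, and Gfi1, Sema6a and Efna5 shared all of theirs.

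The 19 peaks were tall as well as long. The median signal was 29.5 (range 18.3 to 38.4) per 10 M reads, beside 19.96 at the narrow peaks without H3K27me3 and 17.4 at all TSS-proximal peaks. Longer classes of peaks without H3K27me3 had more signal, from a median of 11.97 under 1000 bp to 19.9, 21.96 and 23.9 in the next 3 classes of 1000 bp. Mycn, at 38.4, ranked 11 of the 14684 peaks, and Bcl11a, at 34.6, ranked 56. Alcam (22.4) and Ubb (22.6) were near the lower end. The signal of the second library over the first lay between 0.985 and 1.121 at the 19 peaks, with a median of 1.06.

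Most of the peaks lay for the larger part downstream of the start site. Several straddled it, with 49.6% of the peak downstream at Bcl11a, 53.1% at Zmiz1 and 58.6% at Tob2. At Mycn 98.9% of the peak lay downstream of the start site, at Car2 95.3% and at Patz1 93.0%. The Nfe2 peak was listed for 2 start sites near its opposite ends, with 90.1% of the peak downstream of one and 3.58% downstream of the other. The Clec2d and Pim1 peaks began 24 bp and 57 bp downstream of the start site, which lay outside them. The peak of Ncln, a membrane protein of the endoplasmic reticulum, and S1pr4, a sphingosine phosphate receptor of blood cells, spanned much of S1pr4, whose start site lay 368 bp outside it. Cdk6, a kinase that drives entry into the cell cycle, was the reverse from the start site used here. It had 23.4% of its peak downstream and 3168 bp upstream of that site. The RefSeq gene record of Cdk6 begins further upstream, at chr5:3341004 inside the peak, so its pattern depends on the start site chosen.

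**Figure D2:**
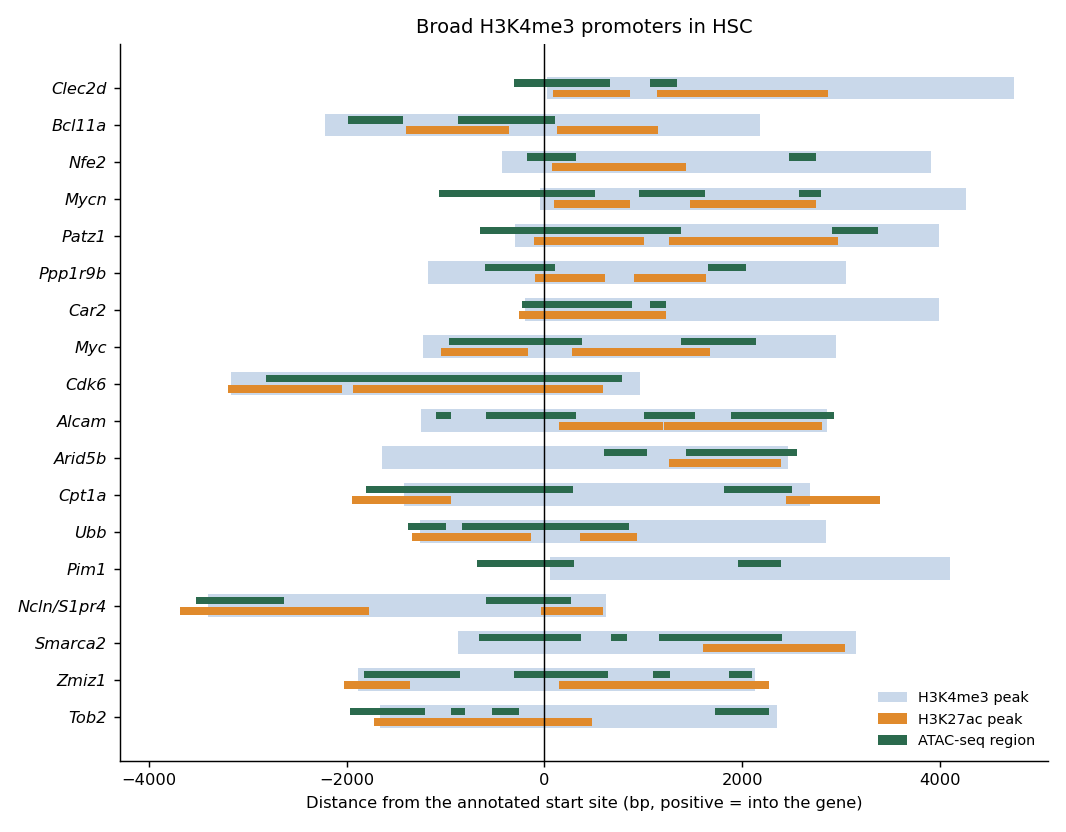
Of the 19 peaks, 18 drawn in bp from the annotated start site (x axis, positive values run into the gene), with H3K4me3 peaks in pale blue, H3K27ac peaks in orange and ATAC-seq regions in green. Most peaks lie for the larger part to the right of the start site drawn, Cdk6 and Ncln/S1pr4 extend to the left, and Pim1 has no H3K27ac peak. The gene record of Cdk6 begins further upstream than the start site drawn, inside the peak. Nfe2 is drawn from the start site with 90.1% of the peak downstream.

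Among 6 gene lists, chosen with results of these data known, the 58 hematopoietic transcription factors had the longest peaks by their median. Of these, 54 had a TSS-proximal peak, 45 of them without H3K27me3, 23 of those reached 3000 bp, and the median length was 2883.5 bp. The median over all 15464 genes with such a peak was 1566 bp, and 300 of the 11221 without H3K27me3 reached 3000 bp. Of the 28 cell cycle genes, Cdk6 was a member and the only one at 3000 bp or more without H3K27me3, with a median of 1876.5 bp over the list. The 42 cytokine and adhesion receptors (median 1904.5 bp), 40 early response genes (2326.5 bp), 45 chromatin regulators (2088 bp) and 91 cytosolic ribosomal protein genes (1819 bp) held 0 members each.

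The other marks were read independently of the rule. Of the 19 peaks, 18 (94.7%) shared sequence with an H3K27ac peak, against 94.4% of the narrow peaks without H3K27me3, so presence of H3K27ac did not set them apart. The H3K27ac peak list serves both ages, so such an overlap is not a call in young HSCs alone. H3K27ac filled only part of each peak, a median of 47.1%, from 17.5% at Cpt1a to 88.5% at Cdk6, and the exception without any was Pim1. In all there were 30 H3K27ac peaks, with a median young signal of 4.47 per 10 M reads, beside 4.43 at the narrow promoters. The strongest were at Ubb, with 8.10 and 8.56 in the young libraries over the 1210 bp peak, and at Bcl11a, with 8.89 and 6.31 over the 1022 bp peak.

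Open chromatin formed 45 ATAC-seq regions in the 19 peaks, between 1 and 4 per peak. Cdk6 had 1 region of 3608 bp that filled most of its peak (87.2%), with 117, 122, 119 and 122 CPM in the 4 young libraries. CPM are counts scaled to library size, and those of regions were not scaled to region length. The Alcam region at the start site, of 914 bp, had 113, 120, 105 and 108 CPM. At the other end, the strongest region of Ppp1r9b reached 13.6 ± 1.67 CPM (SD, n = 4) and that of Nfe2 14.3 ± 1.29 CPM. The strongest regions of the other 15 peaks lay between these.

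H3K36me3 domains covered at least 50% of the body of 19 of the 21 genes, with a median of 92.6%, and the sources used here do not give the age behind the domain list. The share of genes at 50% or more was 90.5%, against 83.8% of the genes with narrow peaks without H3K27me3. Inside the H3K4me3 peaks themselves the 2 marks ranged from no overlap at Cdk6, Alcam, Arid5b, Cpt1a, Smarca2, Zmiz1 and Tob2 to the entire peak at Ubb and Ncln/S1pr4, and 92.3% at Clec2d and 96.1% at Pim1.

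RNA libraries held 20.5 to 24.7 M counts in HSCs, 33.2 to 36.5 M in progenitors and 37.3 to 42.7 M in the knockdown samples, and ATAC-seq libraries 15.4 to 26.3 M. Against their markers, all 10 GMP markers were lower and 9 of the 10 MEP markers higher in MEP than in GMP. The megakaryocyte markers, a separate list, went against the megakaryocyte part of the MEP label, with a sum of 24.8 to 25.8 CPM in MEP, 61.6 to 103 CPM in GMP and 667 to 670 CPM in CMP, and of the 7 tested 2 were higher and 4 lower in MEP than in GMP and all 7 lower than in CMP. All 12 HSC markers were higher in HSCs than in progenitors. The 10 B cell markers summed to 448 to 709 CPM in young HSCs against 6.58 to 59.9 CPM in progenitors, and none of them was at 0. The sort had removed cells with lineage markers, those of B cells included, and which cells made these transcripts was not tested. In bulk samples, fewer cells of a type and less RNA per cell cannot be told apart.

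The genes of the broad promoters were highly expressed in young HSCs. Their median was 26.2 FPKM (counts scaled to library size and to the length of the merged exons, computed here), against 10.1 FPKM for genes with narrow peaks without H3K27me3 and 13.4 FPKM for genes whose longest such peak had 3000 bp or more but stayed under 4000 bp. In young HSCs, 20 of the 21 genes reached 1 FPKM. The median of the same genes was 13.2 FPKM in CMP, 7.06 FPKM in GMP and 10.5 FPKM in MEP, where 20, 18 and 16 genes reached 1 FPKM. The narrow class fell from 10.1 FPKM to 8.10, 6.71 and 6.30 FPKM over the same cell types, so the gap to that class was widest in HSCs. Genes with a longest peak of 3000 bp or more but under 4000 bp had 7.85 FPKM in CMP, 4.43 FPKM in GMP and 2.83 FPKM in MEP. In proportion, the gap to these genes was widest in MEP, not in HSCs.

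Levels within the set differed widely in young HSCs. Ubb, which encodes polyubiquitin, had 596, 582, 617 and 596 FPKM, and Car2 had 603, 568, 588 and 548 FPKM, so that the libraries of these highest genes overlapped. Nfe2 had 187, 180, 188 and 183 FPKM, Mycn 121, 119, 143 and 137 FPKM, and Myc 103, 92.7, 110 and 104 FPKM, and these did not overlap with each other. Below them came Cpt1a, the gate of fatty acids into mitochondria, at 37.95 ± 2.55 FPKM, and Smarca2, an ATPase of the SWI/SNF remodelling complex, at 34.8 ± 0.560 FPKM. Patz1 (28.6), Pim1 (27.9), S1pr4 (26.4) and Ncln (26.2 FPKM) followed, and the libraries of each overlapped with those of a neighbour.

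The lower end of the order held genes with equally long peaks. Bcl11a had 19.7 ± 1.01 FPKM, Ppp1r9b 15.1 ± 0.490 FPKM, Tob2, an antiproliferative factor, 14.6 ± 0.908 FPKM, and Zmiz1, a transcriptional co-regulator, 13.7 ± 0.680 FPKM. Alcam, an adhesion molecule, had 8.74 ± 0.890 FPKM, Cdk6 8.12 ± 0.962 FPKM and Clec2d, with the longest peak, 7.51 ± 1.45 FPKM, and their libraries overlapped. Tob2 overlapped with Ppp1r9b and with Zmiz1, while the lowest library of Ppp1r9b (14.7 FPKM) lay above the highest of Zmiz1 (14.5 FPKM). A gap separated Ppp1r9b, Tob2 and Zmiz1 from Alcam. Arid5b, an AT-rich DNA-binding factor, was at 2.86 ± 0.281 FPKM. The longest peak belonged to the gene ranked 19 of the 21 by RNA, while Car2, Nfe2, Mycn and Myc, among the 8 longest, ranked 2 to 5. A relation of peak length to RNA over the set was not tested.

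**Figure D3:**
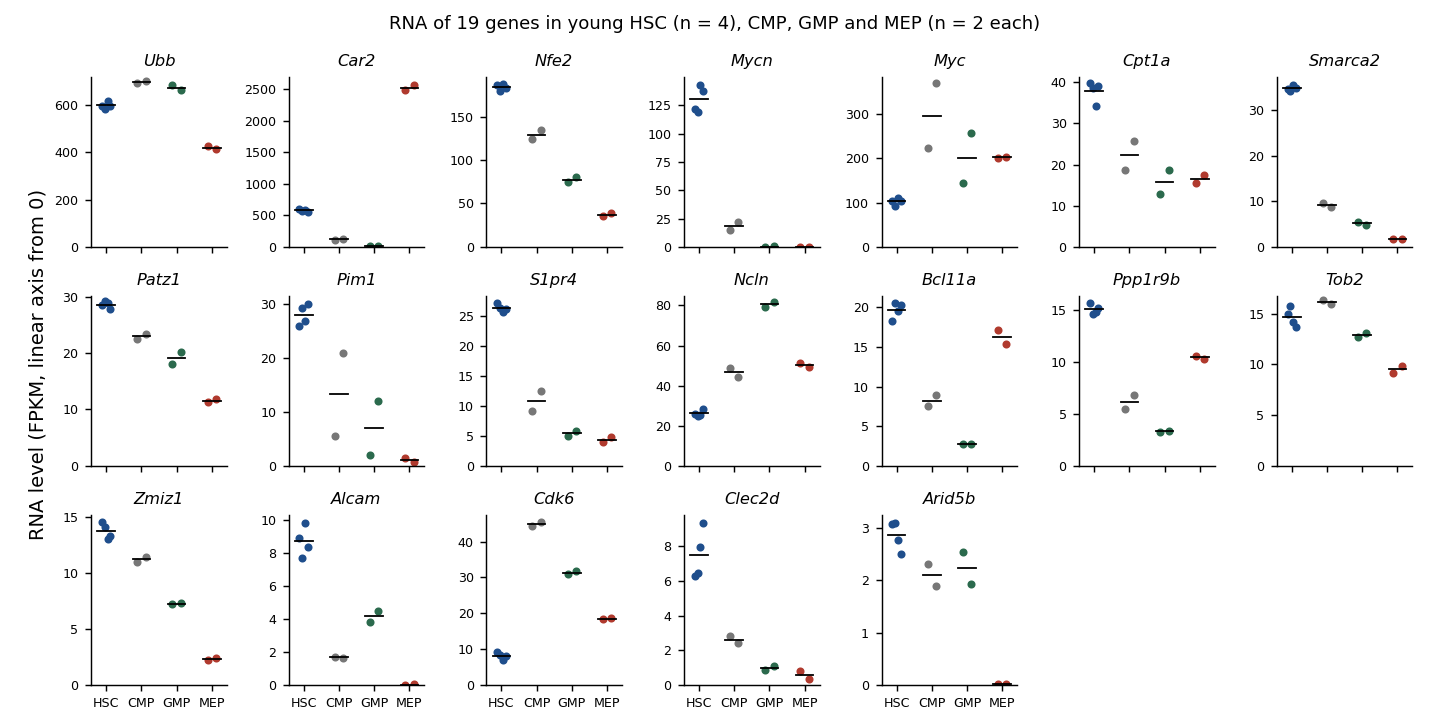
RNA level in FPKM (y axis, linear and starting at 0, with its own scale in each panel) of 19 of the 21 genes in young HSCs (n = 4), CMP, GMP and MEP (n = 2 each). Each point is a library and each line the mean. Mycn and Smarca2 are highest in HSCs, Cdk6, Myc and Ncln are lowest in HSCs, and Car2 is highest in MEP at a mean of 2523 FPKM.

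Young HSCs were compared with CMP, GMP and MEP to ask how far the RNA of these genes was particular to stem cells, and the 3 progenitor types entered as the mean of their log values. By edgeR's quasi-likelihood test with Benjamini-Hochberg adjustment, with limits of 1.5-fold and of 0.05 on the adjusted p, 15 of the 21 genes were higher and 3 were lower in HSCs. The background was large, as 74% of all 25716 genes tested passed the same threshold, 52.1% higher and 21.9% lower, and 63% of the genes of narrow promoters without H3K27me3 did so. The median log2 difference was 0.99 over the 21 genes, 0.85 over all genes tested and 0.02 over the narrow class. HSC libraries of both ages detected 32867 to 42539 genes and progenitor libraries 21375 to 23405 at greater depth, and HSC libraries alone contained spike-in RNA (6.05% to 6.93% of counts), so that cell type and library preparation cannot be told apart in this comparison.

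Mycn showed the largest difference. It had 334, 315, 388 and 377 CPM in the 4 HSC libraries, 52.7 and 77.8 CPM in CMP, 0.206 and 2.39 CPM in GMP, and 0.455 and 0.518 CPM in MEP. The HSC libraries lay above every progenitor library, and GMP and MEP were near the lower limit of detection, with 6 and 66 reads in GMP and 14 and 16 reads in MEP. The log2 difference was 6.68 ± 0.29 (SE, adjusted p = 8.09e-07, edgeR), which is 5.83 above the median of all genes. Its relative Myc went the other way, with 203 to 247 CPM in HSCs and 480 to 1058 CPM in the progenitors, without overlap, and a log2 difference of -1.62 ± 0.22 (adjusted p = 0.000382, edgeR), or -2.47 relative to the median of all genes. The pair of MYC genes, both with broad peaks in HSCs, thus had opposite patterns of RNA.

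The next differences were at an adhesion gene and at regulators of chromatin and transcription. Alcam was 3.71 ± 0.11 higher in HSCs on the log2 scale, with 44.3 to 57.8 CPM against 33.4 and 38.3 CPM in GMP, 12.9 and 12.3 CPM in CMP and 0.065 and 0.194 CPM in MEP. No library overlapped, but GMP lay close to HSCs, and the mean of log values includes the few reads of MEP. Smarca2 was 2.54 ± 0.04 higher, or 1.69 relative to the median of all genes, with 393 to 419 CPM in HSCs, 131 and 147 CPM in CMP, 83.2 and 95.1 CPM in GMP and 27.02 and 29.1 CPM in MEP, a step down at each cell type. Arid5b was called higher by 2.35 ± 0.13, but 21.02 to 25.9 CPM in HSCs overlapped with 20.03 to 31.1 CPM in CMP and GMP, and only MEP lay apart, at 0.130 and 0.194 CPM. S1pr4 (1.59 ± 0.08) and Clec2d (2.27 ± 0.18) were higher in every HSC library than in any progenitor library.

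Cdk6 was the member lowest in HSCs, with 79.4 to 108 CPM against 658 and 672 CPM in CMP, 527 and 535 CPM in GMP and 297 and 298 CPM in MEP. Its log2 difference was -2.33 ± 0.07 (adjusted p = 1.60e-10, edgeR), or -3.18 relative to the median of all genes, and no library overlapped. Its promoter held the ATAC-seq region with the most counts of the 45, but counts were not scaled to region length. That region had a mean of 120 CPM over 3608 bp in young HSCs, and the Alcam start site region 112 CPM over 914 bp. Ncln was lower in HSCs by -1.59 ± 0.05, with 69.9 to 81.7 CPM against 162 to 341 CPM. Patz1 (0.27), Tob2 (-0.24) and Ubb (-0.42) stayed under the fold limit.

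Pim1, a kinase induced by cytokine signals, was called higher by 2.13 ± 0.57, but its progenitor libraries of the same type differed widely. It had 72.5 to 83.9 CPM in HSCs, 19.5 and 74.2 CPM in CMP, 8.48 and 48.7 CPM in GMP and 5.42 and 2.95 CPM in MEP. The higher CMP library overlapped the HSC range. Of the 18 genes called, 10 had HSC libraries clear of every progenitor library (55.6%), where 80.7% of all genes called did, and the rest, Car2 and Bcl11a among them, were called against a mean of progenitors that differed widely. Car2 was called higher in HSCs (1.40 ± 0.07) on the mean of log values, although its plain mean was 1152 CPM in HSCs and 2459 CPM over the progenitor libraries.

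Of the 58 hematopoietic transcription factors, a list chosen with results of these data known, 40 were higher and 10 lower in HSCs, with a median log2 difference of 1.36, where 52.1% of all genes were higher and 21.9% lower. Of the 27 cell cycle genes tested, 5 were higher and 19 lower, with a median of -1.84, and Cdk6 was among the 19.

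The 3 progenitor types were compared with each other, a test free of the HSC libraries. Between MEP and GMP, 4 of the 20 genes tested were higher in MEP and 9 lower, that is 65%, where 43.7% of all 18234 genes tested passed, 16.6% higher and 27.2% lower. The median log2 difference was -0.81 over the 20 genes and -0.03 over all genes. The remaining gene was too low to be tested.

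Car2 rose most in MEP. It had 6030 and 6230 CPM in MEP, 257 and 297 CPM in CMP and 29.0 and 37.7 CPM in GMP, an order in which no library overlapped. The log2 difference of MEP to GMP was 7.52 ± 0.18 and of MEP to CMP 4.47 ± 0.15. Bcl11a had 203 and 226 CPM in MEP, 91.98 and 109 CPM in CMP and 38.5 and 40.0 CPM in GMP, a log2 difference of MEP to GMP of 2.45 ± 0.09. Ppp1r9b (1.54 ± 0.11) was higher in MEP than in GMP as well.

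Alcam and Arid5b were nearly absent from MEP. Alcam had 2 and 6 reads in MEP, or 0.0564 and 0.171 CPM, against 29.5 and 34.4 CPM in GMP and 10.8 and 11.3 CPM in CMP. Arid5b had 4 and 6 reads in MEP, against 20.9 and 27.5 CPM in GMP and 17.5 and 21.6 CPM in CMP. The log2 differences of MEP to GMP, -8.09 ± 0.27 and -7.38 ± 0.29, rest on these few reads. Zmiz1 (-1.76 ± 0.07), Smarca2 (-1.69 ± 0.09), Nfe2 (-1.16 ± 0.06) and Cdk6 (-0.86 ± 0.04) were lower in MEP by less. Nfe2, a factor of megakaryocytic and erythroid genes, had 107 and 116 CPM in MEP against 240 and 259 CPM in GMP. The megakaryocyte markers given above were also low in MEP, and their part in this difference was not tested.

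Between MEP and CMP, 4 of the 20 genes were higher and 12 lower in MEP (80%), where 46.7% of all genes passed, 17.5% higher and 29.2% lower. Mycn, with 46.2 and 68.0 CPM in CMP, was lower in MEP by -7.06 ± 0.90 (adjusted p = 0.00456, edgeR, and 0.0566 or 0.0548 without a MEP library), and so were Arid5b (-7.07 ± 0.29) and Alcam (-6.56 ± 0.29). Smarca2 (-2.31 ± 0.09), Zmiz1 (-2.17 ± 0.07) and Clec2d (-2.08 ± 0.38) were also lower.

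Between GMP and CMP, 2 of the 20 genes were higher and 7 lower in GMP (45%), where 16.7% of all genes passed, 6.24% higher and 10.5% lower. Alcam (1.53 ± 0.15) and Ncln (1.00 ± 0.06) were the genes higher in GMP, and Mycn (-5.65 ± 0.79), Car2 (-3.06 ± 0.15), Bcl11a (-1.35 ± 0.08) and Clec2d (-1.20 ± 0.36) led those lower. The 3 comparisons share libraries. Without CMP replicate 1 the count of genes fell from 9 to 6, where Clec2d, Mycn and Smarca2 were lost, and without CMP replicate 2 to 5, where Clec2d, Mycn, Ppp1r9b and S1pr4 were lost. Mycn also missed the threshold without either MEP library (adjusted p = 0.0578 and 0.0572, edgeR).

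With age, few of these genes changed past the fold limit. Of the 21 genes, 3 were higher and 1 lower in old HSCs (19%), at the same thresholds, where 7.52% of all 21522 genes tested passed, 4.69% higher and 2.83% lower, and 4.58% of the genes of narrow promoters without H3K27me3. The count is small, and the median log2 difference was 0.10 over the 21 genes against -0.01 over all genes. At an adjusted p below 0.05 without the fold limit 10 of the 21 passed (47.6%, edgeR), where 20.6% of all genes and 25.6% of the genes of narrow promoters did. Young and old libraries did not overlap at 8 of the 21 genes (38.1%), as at 13.8% of all genes tested and 16.6% of the genes of narrow promoters. Young libraries were pools of mice and old libraries individual mice, so spread and overlap, here and below, do not measure the same variation at both ages.

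Alcam rose most with age. It had 63.8, 52.5, 68.8 and 59.4 CPM in young HSCs, and the 8 old libraries ranged from 143 to 189 CPM with a median of 160 CPM. Every old library was more than 2 times any young one, and the log2 difference was 1.42 ± 0.09 (SE, adjusted p = 3.37e-09, edgeR), or 2.68-fold. Markers of megakaryocytes, of which 4 of the 7 tested rose and none was at 0, summed to 2995 to 3366 CPM in old and 1786 to 1888 CPM in young HSCs. Their part in the Alcam result was not tested. In the same libraries 8 of the 10 B cell markers were lower in old HSCs, at 208 to 677 CPM in sum against 536 to 844 CPM, and so were 6 of the 10 MEP markers, with 1 higher, at 401 to 580 against 568 to 667 CPM. Of the 8 GMP markers tested, 1 was higher and 1 lower, and the list summed to 332 to 389 CPM in old and 176 to 208 CPM in young HSCs, without overlap. HSC markers summed to 5076 to 5710 CPM in old and 5182 to 5475 CPM in young HSCs, with 1 of 12 higher.

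Mycn had 399.6, 373, 461 and 449 CPM in young HSCs and 580.0 to 742 CPM in old HSCs, with a median of 623 CPM. The groups did not overlap, and the log2 difference of 0.59 ± 0.07 (adjusted p = 2.76e-06, edgeR) corresponds to 1.504-fold, just past the limit. Under DESeq2's size factors it was 0.58 and thus below the limit, as it was without young replicate 1 (0.57) or 2 (0.54) and without old replicate 4 (0.58) or 7 (0.55). Pim1 had 86.8, 93.2, 88.4 and 99.8 CPM in young HSCs and 105 to 199 CPM in old HSCs, with a median of 147 CPM. Its old libraries varied widely but lay above all young ones, and the log2 difference was 0.70 ± 0.18 (adjusted p = 0.0175, edgeR). The adjusted p of Pim1 was 0.0604 without young replicate 1 and 0.0587 without young replicate 3. The antisense gene Gm26885 overlaps Pim1, at 23.0 CPM in young HSCs, and the strand setting of the counting was not given in the sources used here.

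Further genes moved by less than 1.5-fold. Cdk6 was 0.52 ± 0.09 higher on the log2 scale (young 94.4 to 129, old 143 to 194.99 CPM), Cpt1a 0.42 ± 0.06 and Ppp1r9b 0.40 ± 0.05, each without overlap between young and old libraries. Without young replicate 1 the Cdk6 difference was 0.60 and passed the fold limit. Nfe2 was 0.18 ± 0.04 higher (young 511 to 558, old 593 to 657 CPM), again without overlap. Arid5b (0.33) and Zmiz1 (-0.13) had adjusted p below 0.05 with overlapping libraries.

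The most abundant genes and the other regulators did not pass the test. Myc had 240 to 294 CPM in young and 209 to 405 CPM in old HSCs, a difference of 0.11 ± 0.16. Car2 (0.01 ± 0.06), Ubb (0.02 ± 0.04), Smarca2 (0.01 ± 0.04) and Patz1 (0.00 ± 0.04) differed by less than 0.05 on the log2 scale. Bcl11a (0.06 ± 0.04), Tob2 (0.10 ± 0.06), Clec2d (0.20 ± 0.14), Ncln (-0.08 ± 0.06) and S1pr4 (-0.14 ± 0.05) did not pass either.

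**Figure D4:**
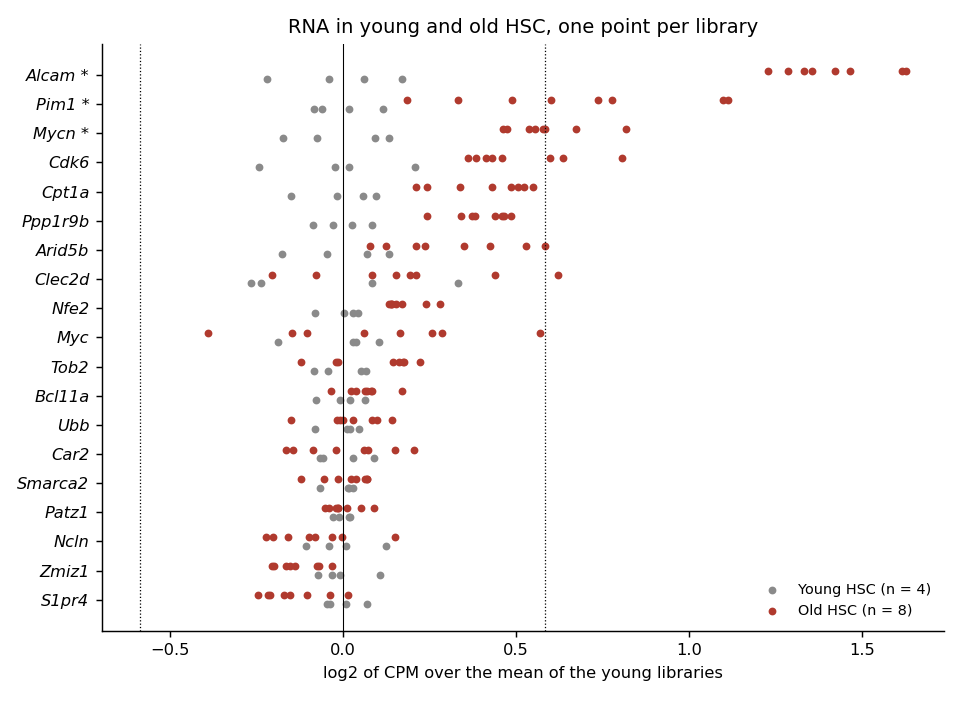
RNA of 19 of the 21 genes in young (grey, n = 4) and old (red, n = 8) HSCs as log2 of CPM over the mean of the young libraries (x axis), with a point per library. Dotted lines mark 1.5-fold and asterisks the genes called. Old libraries of Alcam, Pim1 and Mycn lie above all young libraries.

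The hematopoietic transcription factors as a list showed 4 higher and 4 lower of 58 with age, a median of 0.09, where 4.69% of all genes were higher and 2.83% lower. Mycn was one of the 4 higher, and Myc, Bcl11a and Nfe2 were in neither group. Of the 27 cell cycle genes tested, 3 rose and 2 fell, and Cdk6 was not among them. Of the 45 chromatin regulators, 0 passed.

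Chromatin accessibility with age did not follow the RNA. All 45 ATAC-seq regions in the broad peaks were tested, and with limits of 1.5-fold and of 0.01 on the adjusted p, 0 were higher and 2 lower in old HSCs (4.44%). Among all 89245 regions tested 13% passed, 10.1% higher and 2.9% lower, and in the narrow promoters without H3K27me3 1.94%. The median log2 difference was -0.17 over the 45 regions, -0.15 over those of narrow promoters and -0.01 over all regions, so the broad and the narrow promoters had like medians. At an adjusted p below 0.01 without a fold limit 15 of the 45 (33.3%) passed, and all 15 were lower in old HSCs. The share that passed was 30.7% at the narrow promoters, 29.6% of their regions being lower, and 23.2% of all regions, with 9.54% lower, so the share at the broad promoters lay close to that of the narrow ones.

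Both regions past the fold limit were at Ubb. The 1686 bp region over the start site had 46.3, 47.4, 43.6 and 44.5 CPM in young HSCs and 25.02, 25.8, 29.5 and 30.4 CPM in old HSCs. The groups were far apart, with a log2 difference of -0.71 ± 0.06 (adjusted p = 2.11e-14, edgeR). The 380 bp region upstream had 6.03 to 6.74 CPM in young and 3.496 to 4.63 CPM in old HSCs, a difference of -0.67 ± 0.14 (adjusted p = 0.000171, edgeR). The RNA of Ubb over the same ages was 929 to 1015 CPM in young and 887 to 1086 CPM in old HSCs, with overlap.

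At the genes whose RNA changed with age, accessibility moved little. The start site region of Alcam had 105 to 120 CPM in young and 101 to 103 CPM in old HSCs, a difference of -0.12 ± 0.04 (adjusted p = 0.0236, edgeR), while its RNA rose 2.68-fold. The main Mycn region had 80.1 to 83.0 CPM in young and 76.7 to 82.6 CPM in old HSCs (-0.04 ± 0.04), and that of Pim1 19.4 to 23.1 and 20.7 to 26.3 CPM (0.12 ± 0.07). Of the regions under the fold limit at an adjusted p below 0.01, those of Smarca2 (-0.44 ± 0.07 and -0.39 ± 0.06), Cpt1a (-0.43 ± 0.05) and Tob2 (-0.40 ± 0.10) differed most, with no overlap between ages.

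**Figure D5:**
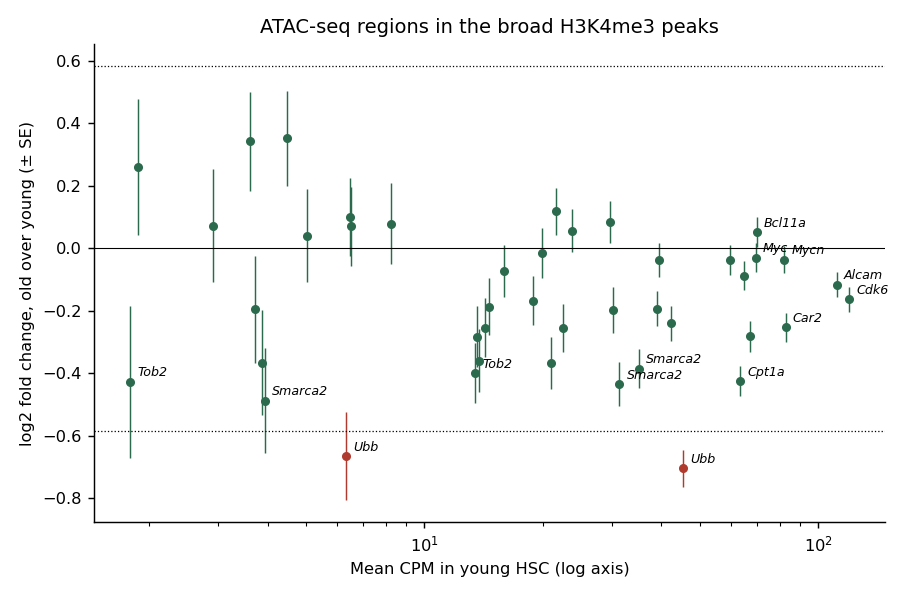
Mean CPM of 43 of the 45 ATAC-seq regions in young HSCs (x axis, log scale) against its log2 fold change of old over young with the standard error (y axis), and dotted lines at 1.5-fold. The 2 red points are the regions called lower, both at Ubb at -0.71 and -0.67, and no region lies above the upper line.

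H3K27ac at the 30 peaks was compared by the study's rule of ratios, in which the means must differ by more than 1.5-fold and every library of one age must be at least 1.2 times every library of the other. By this rule 0 of the 30 changed, where 11.4% of all 39557 H3K27ac peaks did, 9.11% higher and 2.27% lower, and 1.65% at the narrow promoters. Ratios of old to young ranged from 0.738 to 1.40 with a median of 1.01. The highest was the 1273 bp peak at Mycn, with 4.44 and 3.49 per 10 M reads in young and 5.67 and 5.44 in old HSCs. The lowest was the 628 bp peak at Ncln/S1pr4, with 4.15 and 4.56 in young and 2.98 and 3.45 in old HSCs. At Alcam the ratios were 1.03 and 1.22, and at Ubb, where accessibility had fallen, they were 1.07 at the 1210 bp peak and 0.898 at the 571 bp peak, each without overlap. Limma also called 0 of the 30 at an adjusted p below 0.05, and 1074 of all peaks. Without young replicate 1 the rule of ratios called 2 of the 30 higher and without old replicate 1 it called 1.

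Knockdown of the Btaf1 variant in old HSCs was examined last. Btaf1 itself had 138 and 142 CPM with shControl in culture and 109 to 118 CPM with the shRNAs, and 161 and 166 CPM against 118 to 139 CPM after transplantation. The counts do not separate the short variant from the full gene, and Btaf1 reads fell in every shRNA library of both settings. In culture, 0 of the 20 genes tested passed edgeR's quasi-likelihood test with Benjamini-Hochberg adjustment at the 1.5-fold limit, where 0.906% of all 19763 genes did (0.582% higher, 0.324% lower). DESeq2 also called 0 of them, and 6 had an unadjusted p below 0.05, among 3018 of all genes.

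Below the fold limit, 3 of the 20 genes (15%) had an adjusted p below 0.05 in culture, as did 3.36% of all genes tested and 4.39% of the genes of narrow promoters, and they are named after their values were seen. Alcam had 39.2 and 38.1 CPM with shControl and 52.5, 46.4, 49.7 and 57.0 CPM with the shRNAs (0.41 ± 0.08, adjusted p = 0.0101, edgeR). Tob2 had 65.5 and 71.7 CPM against 81.1 to 91.0 CPM (0.34 ± 0.06), and Cpt1a 108 and 111 CPM against 127 to 141 CPM (0.27 ± 0.05). Their libraries did not overlap. The Alcam difference in culture had the same sign as the difference of old to young HSCs. After transplantation, Alcam had 61.2 and 71.6 CPM with shControl and 65.2 to 83.7 CPM with the shRNAs, with overlap.

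After transplantation 0 of the 21 genes passed, as did 0% of all 20350 genes tested. DESeq2 called 0 of the 21 and 31 of all genes, and 2 of the 21 had an unadjusted p below 0.05 among 1138 of all genes. Smarca2, 1 of these and named after its values were seen, had 491 and 527 CPM with shControl and 411 to 473 CPM with the shRNAs, without overlap (-0.24 ± 0.07, adjusted p = 0.852, edgeR). A test of the difference between the knockdown effects in the 2 settings called 0 of the 21 genes at an adjusted p below 0.05, with a lowest adjusted p of 0.0836 (edgeR), where it called 45 of all 21443 genes (0.21%).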

How the data were processed

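RNA-seq, ATAC-seq and ChIP-seq values were analysed as deposited. For RNA, the authors used cutadapt for trimming, STAR for alignment (mm10) and featureCounts for reads per gene, and the deposited counts were used here without rounding. The strand setting of the counting was not given in the sources used here. ATAC-seq counts per region came from BWA alignments and MACS2 regions. The deposited ChIP-seq signal of the authors was scaled to 10 M reads (M, mega), with narrow MACS2 peaks for H3K4me3 and H3K27ac, and 1 kb bins merged into broad domains for H3K27me3 and H3K36me3. Tables of the series held 8 further columns of per-sample values, which were not used.

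Spike-in rows (92) were left out. RNA and ATAC-seq counts were tested with edgeR 4.0.16 (TMM scaling, quasi-likelihood F-test, Benjamini-Hochberg adjustment over all features tested) in R 4.3.3, with all HSC libraries in one fit for age, the young HSC and progenitor libraries in another, the progenitors in a separate fit and each knockdown setting in its own. RNA genes passed edgeR's filter on low counts, and ATAC-seq regions had to exceed 1.5 CPM in at least 4 libraries. CPM are TMM-scaled within a fit, so they differ slightly between fits. FPKM were computed here from the counts and merged exon lengths. H3K27ac was compared by ratios and, as an alternative, with limma 3.58.1 on log2(signal + 0.1). DESeq2 1.42.0 was another alternative. Sequences came from RefSeq tables, read in Python 3.11.15. The scripts were tested on simulated data. Young RNA came from pooled mice and the labels of other groups do not always name separate animals, so p-values measure the spread between these samples.

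The members, gene lists and tests were chosen with earlier results of these data known. Genes named in the text were the 8 longest members, the 3 shortest members and the 3 longest peaks just under 4000 bp, the 6 members with the largest change in each direction per RNA comparison among those called without overlap (10 for age), the members on the lists of transcription factors, receptors and early response genes, and the 4 largest ATAC-seq and H3K27ac changes in each direction. Values of 1 locus are not reported here, although counts over all members include it.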

Additional observations from a re-analysis of the deposited data

Results flagged for a closer look

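In 5 of 124 groups of 4 to 8 libraries, 1 library stood apart from the others by Dixon's criterion, where chance alone gives about 1 in 20, or 6.2 groups. Young replicate 2 had 466 CPM of Smarca2 RNA, against 493 to 498 CPM in the other young libraries.

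In ATAC-seq, young replicate 2, the library with the lowest total, had 54.5 CPM at the 2033 bp region of Patz1, against 61.0 to 62.1 CPM in the other young libraries. Young replicate 1 had 28.0 CPM at the 1246 bp region of Smarca2, against 32.1 to 32.7 CPM. Old replicate 6 had 58.8 CPM at the 1046 bp region of Alcam, against 61.5 to 61.8 CPM in the other old libraries. Old replicate 8 had 7.72 CPM at the 441 bp region of Pim1, against 6.64 to 6.79 CPM. None of these libraries changes the order of the ages at the Smarca2 and Alcam regions, where young and old did not overlap.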

How the results depend on the processing

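No gene or region that was called changed direction under any alternative run, while 45 of the 1807 values of single genes and regions, all of genes not called, changed sign. With members taken from 3000 bp, more genes were members, and the counts became 38 for age, 221 for HSCs against progenitors, 188 for MEP against GMP, 184 for MEP against CMP, 99 for GMP against CMP, 4 for knockdown in culture, 15 for ATAC-seq and 4 for H3K27ac. The numbers tested at that limit are not given here, so these counts cannot be set against the shares above. The median RNA level in young HSCs fell from 26.2 to 14.1 FPKM, so the high level depends on the length limit. No peak reached 5000 bp, so that setting was not run. At a fold change above 2, age left 1 gene (Alcam) and ATAC-seq 0 regions. Leaving out 1 library gave 3 to 4 genes for age, 17 to 18 for HSCs against progenitors, 13 to 14 for MEP against GMP, 15 to 16 for MEP against CMP, 5 to 9 for GMP against CMP, 0 in both knockdown settings, 2 ATAC-seq regions, 0 to 2 H3K27ac peaks and a median of 25.5 to 26.4 FPKM. Excluding peaks within 1000 bp of H3K27me3 dropped Smarca2 and Alcam and left 3 genes for age and 16 for HSCs against progenitors. DESeq2, its size factors in edgeR and no filter on low counts kept every count within 1.5 times of the value reported. Among single genes and regions, 48 values lost their call under an alternative, 7 gained one and 1752 did neither; the cause was not tested.

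Replicate numbers were not treated as pairs in the main fits. Correlations of same-numbered libraries ran from -0.177 to 0.0599 for age and from -0.0414 to 0.213 for HSCs with progenitors. They ran from 0.044 to 0.248 among progenitors, from -0.0442 to 0.0521 in culture and from -0.0994 to 0.144 after transplantation. The highest, 0.213 and 0.248, were those of CMP with GMP, and a replicate effect shared by these types was not tested on its own. With the replicate number as a block, 3 genes passed for age (Pim1 adjusted p = 0.0519, edgeR) and 16 for HSCs against progenitors (Pim1 0.0508), and the other counts were 13, 16, 9, 0 and 0, and 0 for H3K27ac with limma. Over all genes the block took the age calls from 1618 to 1421. No paired analysis was possible for ATAC-seq because young and old libraries share no replicate number. The values of Mycn, Alcam and Arid5b in MEP rest on few reads.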
